A study of Mus musculus with 3 samples.

Results

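The chemokines and chemokine receptors described here are the protein-coding genes of the GENCODE annotation of mm10 on chromosomes 1 to 19 and X whose symbol begins with Ccl, Cxcl, Xcl, Cx3cl, Ccr, Cxcr, Xcr, Cx3cr or Ackr and a digit. The rule found 60 of 21728 genes. They were 23 CC ligands, 12 CXC ligands, 2 other ligands (Xcl1 and Cx3cl1), 11 CC receptors, 8 CXC and other receptors, and 4 atypical receptors. The measurement was chromatin accessibility over each gene body with 2 kb upstream, read from the ATAC arm of a single-nucleus multiome experiment. Levels are fragments in CPM, the count scaled to a library total of 1000000 fragments on the autosomes and X, and CPM per kb divides by the window length. In such an experiment a transposase cuts open chromatin, and each cut piece (a fragment) carries the barcode of its nucleus. The RNA arm was not analysed here, so every value below is about open chromatin and not about transcripts.

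Nuclei came from snap-frozen hearts of wild-type mice, and every title carries 3 months, without saying whether that is an age or a treatment time. The vehicle library (titled Control) held 18704581 unique fragments. The sunitinib library (titled TKI), from hearts given a cancer drug that blocks several receptor tyrosine kinases, held 23653823. The library of sunitinib with Yoda1 (titled Yoda1), a chemical activator of the ion channel PIEZO1, held 583792 fragments and 12 called nuclei. With 1 library per group there was no test and no p-value, and each 95% interval covers only the error of counting. The number of hearts behind a library is not given in the sources used here. Nuclei numbered 2697 under vehicle and 3865 under sunitinib, with medians of 2156 and 2371 fragments, and 22 barcodes occurred as nuclei in both libraries. Possible doublets were not removed.

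Chemokines are small secreted proteins that guide the movement of leukocytes by binding receptors coupled to G proteins. Inflammatory chemokines such as Ccl2 and Cxcl1 recruit monocytes and neutrophils to injured tissue, while homeostatic ones such as Cxcl12, Ccl21a and Ccl25 direct lymphocytes and progenitors at rest. Atypical receptors bind chemokines without this signalling and take them up or carry them across cells. In the heart, vessels and fibroblasts are known sources of ligands, and resident macrophages carry both ligands and receptors.

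The promoters that carry the main patterns are shown first. RefSeq sequences on build GRCm38.p6 (mm10), from 250 bases before to 50 bases after a start site, were matched for 46 of the 60 genes. Capitals mark letters that match one of 5 motifs searched on both strands, namely GGNNTTTCC (NF-kappaB), TGANTCA (AP-1), TTCNNNGAA (STAT), GAAANNGAA (IRF) and TATAAA (a core promoter element). Cxcl1 (plus strand, chr5:90890995-90891294) and Cxcl2 (plus strand, chr5:90903649-90903948) encode neutrophil attractants and each hold the NF-kappaB letters at a pair of places. Ccl3 (minus strand, chr11:83649329-83649628), a macrophage inflammatory protein, holds the IRF letters. Cxcr4 (minus strand, chr1:128592250-128592549), the receptor of Cxcl12, holds the core promoter letters on both strands, overlapping. Ccr4 (minus strand, chr9:114496495-114496794), a receptor of T cells, holds the AP-1 letters. Ccr9 (plus strand, chr9:123766961-123767260), the receptor of Ccl25 on thymocytes and gut-homing T cells, is shown because it had the highest ratio among CC receptors, and none of the 5 motifs matched in it.
Cxcl1: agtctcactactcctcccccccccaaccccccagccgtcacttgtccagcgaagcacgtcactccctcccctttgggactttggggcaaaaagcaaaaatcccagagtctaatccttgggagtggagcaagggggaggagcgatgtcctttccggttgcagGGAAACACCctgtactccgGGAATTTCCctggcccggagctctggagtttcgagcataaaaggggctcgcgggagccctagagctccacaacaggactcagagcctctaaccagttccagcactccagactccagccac
Cxcl2: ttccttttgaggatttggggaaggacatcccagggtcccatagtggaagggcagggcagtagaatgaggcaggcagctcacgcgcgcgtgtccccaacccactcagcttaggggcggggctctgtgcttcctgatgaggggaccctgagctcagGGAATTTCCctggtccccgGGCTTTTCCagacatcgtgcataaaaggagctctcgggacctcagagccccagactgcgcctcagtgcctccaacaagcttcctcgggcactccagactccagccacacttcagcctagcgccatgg
Ccl3: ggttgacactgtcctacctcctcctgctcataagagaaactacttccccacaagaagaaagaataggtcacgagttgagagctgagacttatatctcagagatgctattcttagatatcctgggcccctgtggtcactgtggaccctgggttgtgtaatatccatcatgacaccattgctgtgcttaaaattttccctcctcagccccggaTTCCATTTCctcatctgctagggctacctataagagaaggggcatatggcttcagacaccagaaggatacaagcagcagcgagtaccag
Cxcr4: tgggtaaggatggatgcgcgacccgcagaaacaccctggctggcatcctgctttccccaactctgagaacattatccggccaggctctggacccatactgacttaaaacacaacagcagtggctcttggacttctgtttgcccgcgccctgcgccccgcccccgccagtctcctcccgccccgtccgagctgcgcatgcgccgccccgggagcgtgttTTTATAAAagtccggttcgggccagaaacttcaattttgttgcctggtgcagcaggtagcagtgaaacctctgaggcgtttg
Ccr4: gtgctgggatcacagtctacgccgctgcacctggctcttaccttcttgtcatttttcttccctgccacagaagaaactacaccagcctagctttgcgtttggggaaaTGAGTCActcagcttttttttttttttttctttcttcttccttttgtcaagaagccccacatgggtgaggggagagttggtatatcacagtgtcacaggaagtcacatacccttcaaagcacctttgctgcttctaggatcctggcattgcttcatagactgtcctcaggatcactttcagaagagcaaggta
Ccr9: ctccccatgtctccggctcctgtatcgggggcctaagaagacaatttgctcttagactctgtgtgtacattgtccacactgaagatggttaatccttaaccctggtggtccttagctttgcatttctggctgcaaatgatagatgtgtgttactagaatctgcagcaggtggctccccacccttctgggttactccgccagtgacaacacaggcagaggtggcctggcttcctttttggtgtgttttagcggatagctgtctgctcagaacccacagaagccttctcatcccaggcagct

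NF-kappaB letters were found in 9 of the 46 promoters (19.6%), which belonged to 7 of 27 ligands (25.9%) and 2 of 19 receptors (10.5%). Of 26794 promoters of all genes in the table, 5.76% hold them. The ligands were Ccl9, Ccl20, Cxcl1, Cxcl2, Cxcl3, Cxcl9 and Cxcl10, and the receptors were Ccr3 and Ackr4. IRF letters were in 8 of 46 (17.4%, against 8.54% of all promoters), AP-1 letters in 7 (15.2% against 7.98%), core promoter letters in 13 (28.3% against 14.2%) and STAT letters in 4 (8.70% against 8.51%). A match is a description of the sequence and does not show that a factor binds there.

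Fragments over these same 300 bases fell into different cell classes. The classes were made by clustering the nuclei and named from marker genes, none of them a chemokine or receptor gene, and each name ends in -like. In CPM per kb, within the fragments of each class in both libraries together, the Cxcl1 promoter stood at 49.4 in fibroblast-like, 42.8 in mural-like and 27.4 in vascular endothelial-like nuclei. It stood at 0.856 in T lymphocyte-like nuclei. The Cxcl2 promoter was highest in myeloid-like nuclei (32.1) and stood at 10.5 in vascular endothelial-like nuclei. The Ccl3 promoter was highest in myeloid-like nuclei (35.3, from 11 fragments) and stood at 18.3 in B lymphocyte-like (3 fragments) and 1.45 in fibroblast-like nuclei. The Cxcr4 promoter reached 65.9 in T lymphocyte-like and 61.0 in B lymphocyte-like nuclei, and the Ccr4 and Ccr9 promoters 55.6 and 36.8 in T lymphocyte-like nuclei. Over the whole libraries, vehicle then sunitinib, the Ccr4 promoter held 18 and 97 fragments, the Ccr9 promoter 18 and 68 and the Cxcr4 promoter 93 and 193. The ligand promoters moved less, with 83 and 97 fragments at Cxcl1, 34 and 28 at Cxcl2 and 12 and 17 at Ccl3. These promoter counts are not scaled to the library totals, which were 18678009 under vehicle and 23621828 under sunitinib on the autosomes and X. Scaling would lower each sunitinib count relative to vehicle.

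The median over the 60 members was below that of the 19358 genes with at least 50 fragments in these 5 classes except the myeloid-like one. The sets are unlike, since the 60 include Cxcl13 and 4 windows at 0, under that minimum, which can lower their median. The median level over the members, in CPM per kb of each class, was 0.948 in myeloid-like nuclei, where the median of the 19358 genes was 0.935. It was 0.373 in vascular endothelial-like nuclei (those genes 0.870), 0.353 in T lymphocyte-like (0.920), 0.434 in fibroblast-like (0.871) and 0.351 in cardiomyocyte-like nuclei (0.793). Nuclei of both libraries were clustered together, so levels across classes are a description with no test. Of the 60 windows, 55 held at least 50 fragments over the vehicle and sunitinib libraries, Cxcl13 held 16 and 23, and 4 on chromosome 4 (Ccl19, Ccl21a, Ccl21b and Ccl27b) held none. A count of 0 allows up to 0.161 CPM under vehicle and 0.127 under sunitinib. Some of these 4 have near-identical copies nearby, to which reads cannot be placed uniquely, so a listed 0 is not a measure of closed chromatin.

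**Figure D1:**
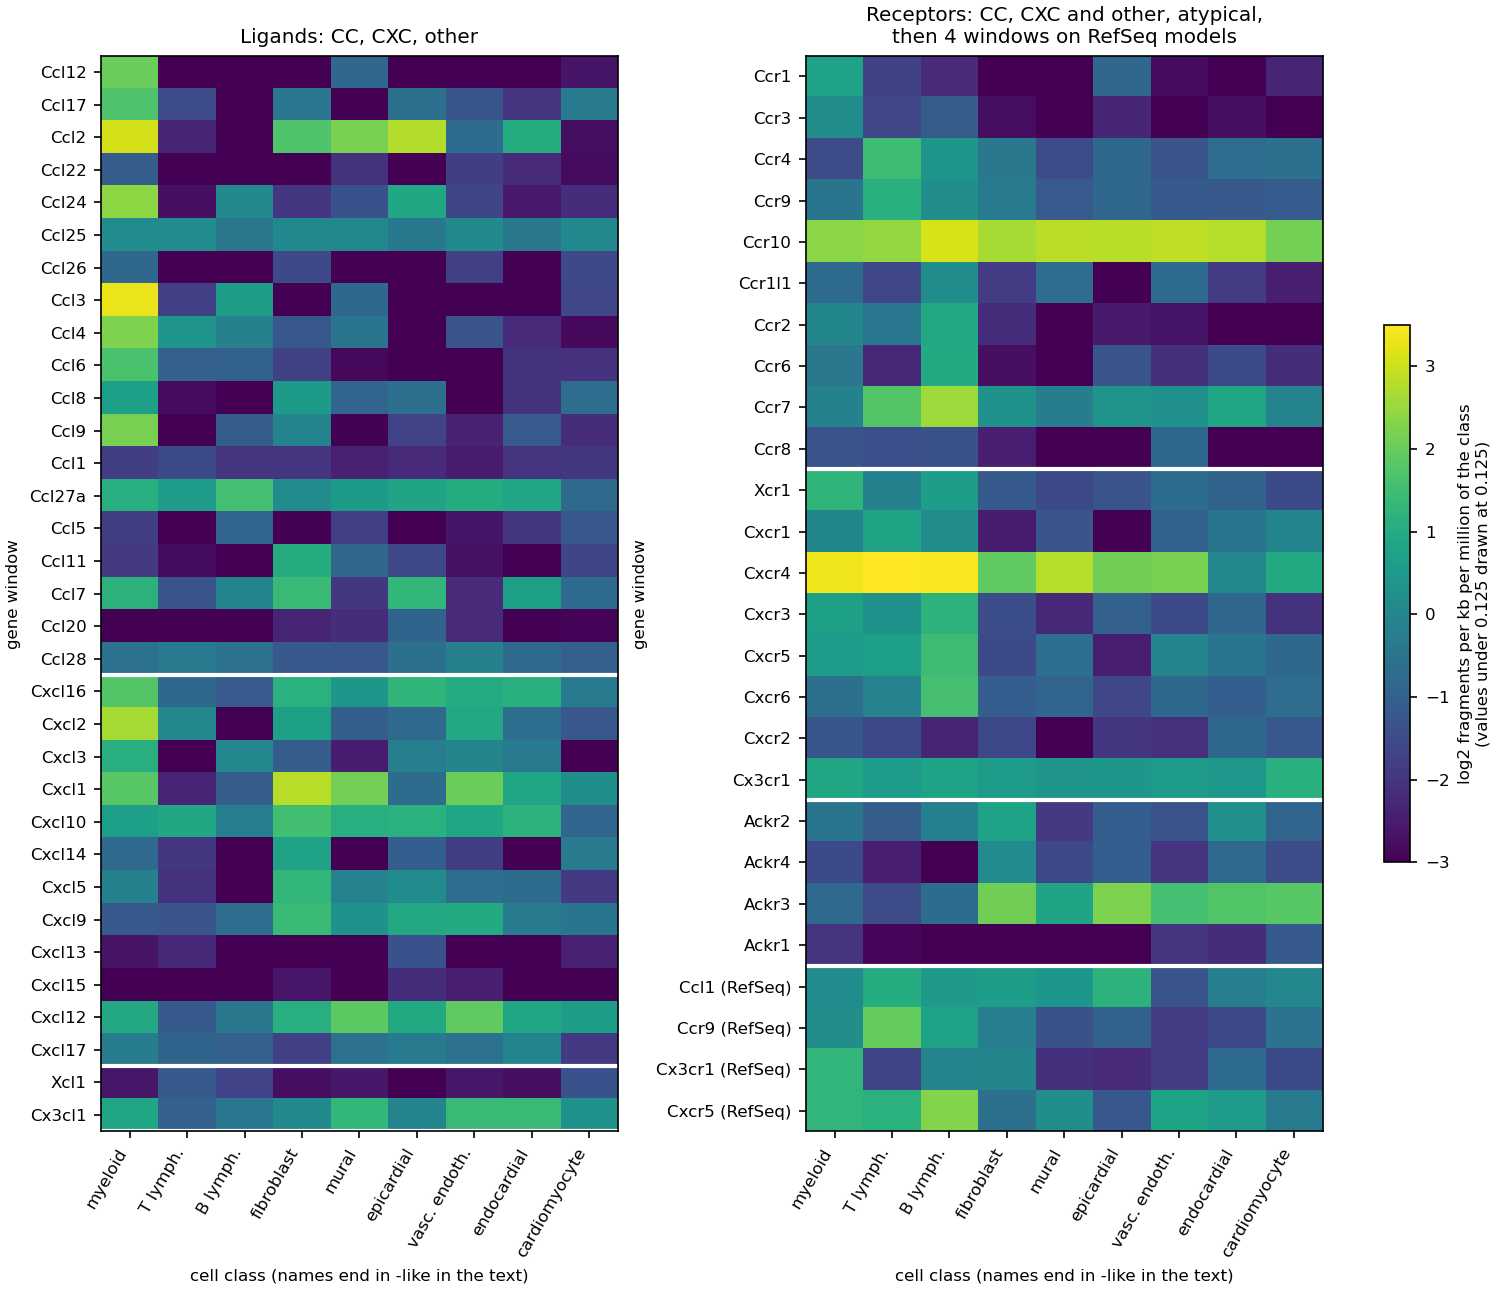
Accessibility of 55 gene windows in 9 cell classes, as log2 of CPM per kb of the class over the vehicle and sunitinib libraries together, with the 4 windows at 0 left out and 4 long windows repeated on RefSeq models. Ccl3 (9.88 before the log) and Ccl2 (8.44) stand out in the myeloid column, Cxcr4 (12.6) in the T lymphocyte column, and Cxcl12 (3.79) in the vascular endothelial column.

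Of the 35 members with at least 20 fragments in their highest class, 11 were highest in myeloid-like nuclei, 9 in fibroblast-like, 5 in T lymphocyte-like, 4 in vascular endothelial-like and 4 in B lymphocyte-like nuclei. One each was highest in cardiomyocyte-like and in epicardial or mesothelial-like nuclei. A member entered through its highest class, and a class with few fragments could rank fewer members. No share over all genes was computed beside these counts, so they describe the members only. Some highest classes were nearly level with the next, as for Ccl25 (1.00 times), Cx3cl1 (1.02) and Cxcl12 (1.03). The highest class is given over both libraries together, here and below, and it was the same in each library for 23 of the 35. Among members described below, Cxcr4 was highest in myeloid-like nuclei under vehicle, Ccl7 in epicardial or mesothelial-like nuclei under vehicle, Cxcl1 in myeloid-like and Cx3cl1 in mural-like nuclei under sunitinib, and Ackr3 in endocardial-like nuclei under sunitinib. Ccr10 and Ccr6 were highest in epicardial or mesothelial-like nuclei under sunitinib. The B lymphocyte-like cluster had 6 of 8 B lymphocyte markers at least 2-fold more open than in other nuclei (median log2 1.73), but also 7 of 11 T lymphocyte markers (1.04), 4 of 6 natural killer markers (1.63) and 3 of 6 mature T markers (1.37).

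The ligands Ccl3, Ccl6 and Ccl9 had the largest ratios of the highest to the next class among the 35 ranked members. Ccl3 in myeloid-like nuclei stood at 7.81 (4.37 to 12.9, 15 fragments) under vehicle and 12.2 (7.54 to 18.6, 21) under sunitinib, which is 6.32 times the next class (B lymphocyte-like) over both libraries. Ccl4, its neighbour with similar activity, stood at 4.46 and 4.97 (10 and 10 fragments), 3.58 times the next class. Ccl9 stood at 3.32 and 5.81 (14 and 22) and Ccl6 at 2.54 and 3.68 (10 and 13), 4.68 and 6.06 times the next class. These 4 genes belong to 1 cluster on chromosome 11 that also holds Ccl5, a T cell attractant. The intervals of the vehicle and sunitinib libraries overlapped for each of these genes in myeloid-like nuclei.

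The monocyte attractant cluster, also on chromosome 11, was shared by several classes. Ccl2 (chr11:82035571-82037453), the ligand of Ccr2, stood in myeloid-like nuclei at 8.48 (5.03 to 13.4, 18 fragments) under vehicle and 8.39 (4.80 to 13.6, 16) under sunitinib. In mural-like nuclei it stood at 6.42 and 2.91 (12 and 6 fragments, ratio -1.08 (-2.84 to 0.38) on the log2 scale), and in fibroblast-like nuclei at 2.17 and 4.20 (9 and 20, 0.91 (-0.25 to 2.27)). Both intervals include 0. Ccl7, another monocyte attractant, stood in fibroblast-like nuclei at 3.19 and 2.14 (13 and 10 fragments), its highest class over both libraries (2.63) but not under vehicle. Ccl11 (eotaxin), which draws eosinophils, was highest in fibroblast-like nuclei at 2.23 and 1.83 (17 and 16), 3.64 times the next class.

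Bins of 2 kb showed where within these clusters the signal lay. From Ccl2 to Ccl8 the mean level was 1.73 CPM per kb in myeloid-like, 1.42 in fibroblast-like and 0.863 in mural-like nuclei, and 0.196 in vascular endothelial-like and 0.161 in T lymphocyte-like nuclei. The highest mural-like bin, at 15.3 (12 fragments under vehicle and 19 under sunitinib), began at -4 kb from the Ccl2 start, outside the Ccl2 window. Fibroblast-like nuclei had 8.06 in the same bin, 8.50 in the bin that begins at 2 kb, at the end of Ccl2, and 7.63 in the bin at 26 kb, at the end of Ccl11. From Ccl5 to Ccl4 the mean level was 2.54 in myeloid-like nuclei and at most 0.537 in the other 4 classes drawn. Distances here run with rising coordinates, and Ccl3 lies on the minus strand. The highest myeloid-like bin, at 12.5 (12 and 14 fragments), began at -32 kb from the Ccl3 start, between Ccl6 and Ccl3, and touched no member window. T lymphocyte-like nuclei had a single high bin of 9.24 (11 and 61 fragments), which began at -10 kb and also touched no member window.

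**Figure D2:**
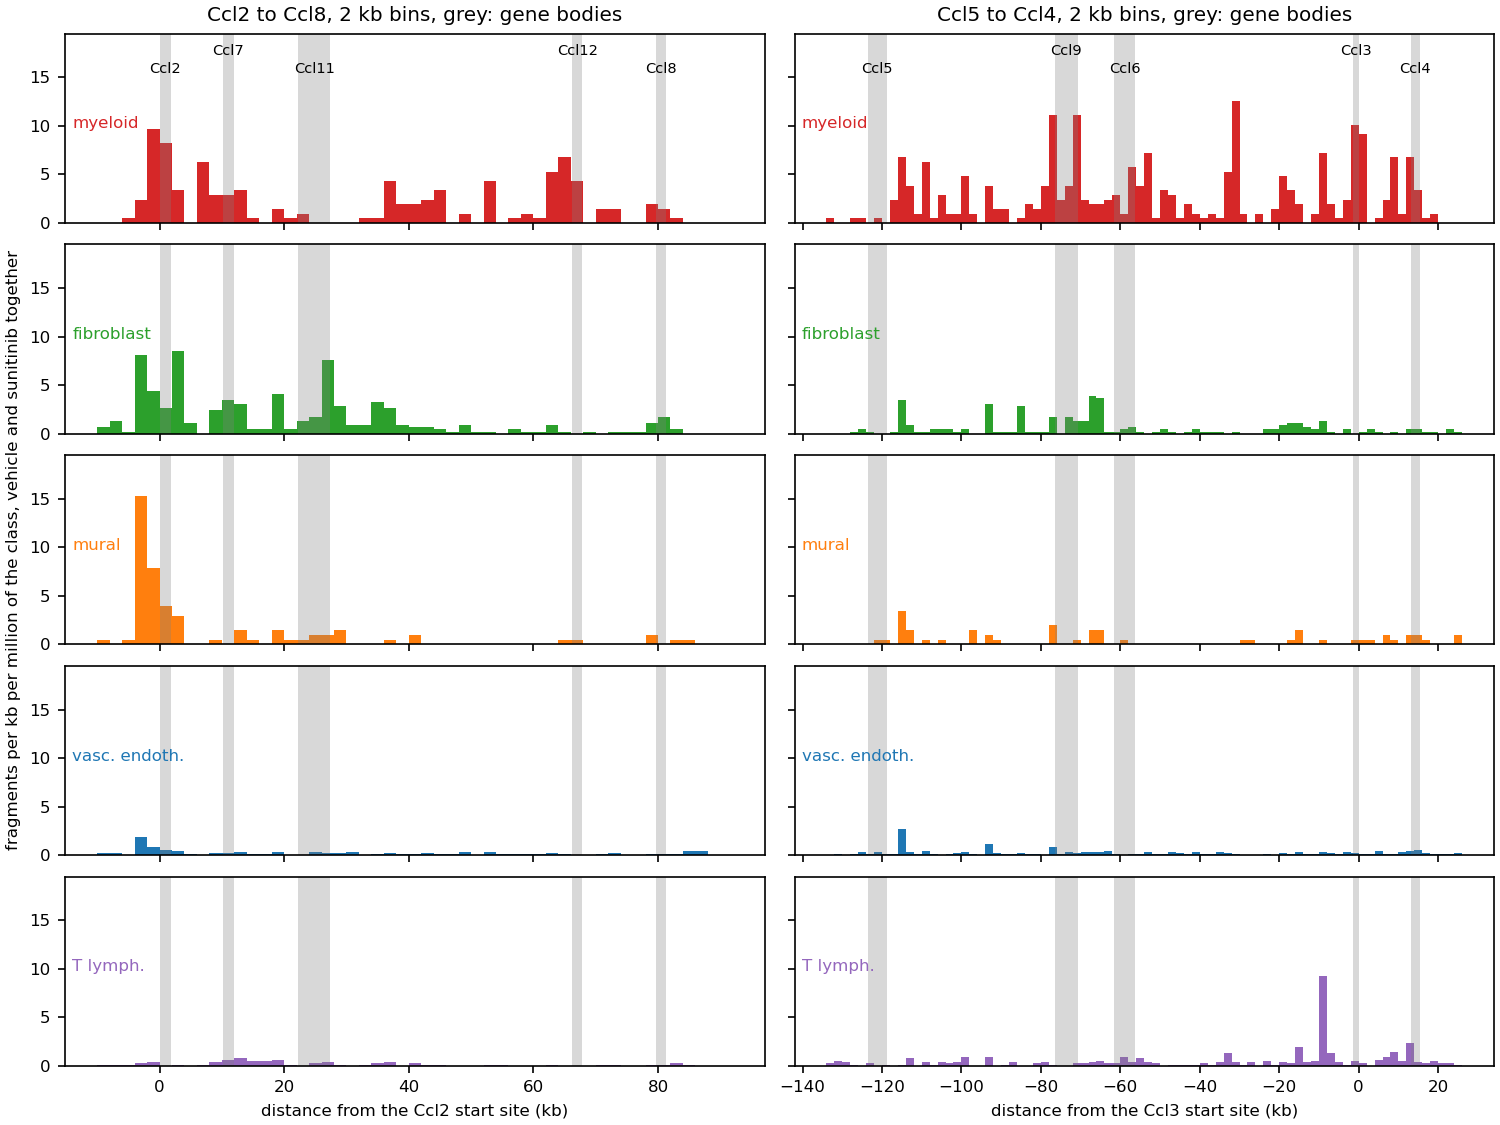
CPM per kb of the class in 2 kb bins across the Ccl2 to Ccl8 cluster (left, distance from the Ccl2 start in kb) and the Ccl5 to Ccl4 cluster (right, distance from the Ccl3 start in kb, in the direction of rising coordinates), vehicle and sunitinib together, for 5 classes in rows. The myeloid row is high across both clusters, the mural row peaks at 15.3 upstream of Ccl2, and the T lymphocyte row has 1 bin of 9.24 between Ccl6 and Ccl3.

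The neutrophil attractants divided between fibroblast-like and myeloid-like nuclei. Cxcl1 (chr5:90891241-90893115) was highest over both libraries in fibroblast-like nuclei, at 7.97 (5.49 to 11.2, 33 fragments) under vehicle and 6.11 (4.09 to 8.77, 29) under sunitinib. Under sunitinib the myeloid-like level of 6.31 (12 fragments) was slightly above it. It stood at 4.03 and 4.15 in vascular endothelial-like nuclei (48 and 68 fragments), close to level between libraries. Cxcl2 was highest in myeloid-like nuclei at 6.75 and 5.51 (15 and 11 fragments), 3.27 times the vascular endothelial-like class. Their receptor Cxcr2 held 67 and 76 fragments in the whole libraries and was low in every class, at 0.333 in T lymphocyte-like nuclei over both libraries. Over their windows the interferon-induced ligands Cxcl9 and Cxcl10 were both highest in fibroblast-like nuclei, at 2.65 and 2.87. All fragments of the Cxcl10 window touched another gene window. For Cxcl9 this was 1.34 times the vascular endothelial-like level. The Cxcl9 promoter went the other way, at 16.0 in vascular endothelial-like (35 fragments) and 4.36 in fibroblast-like nuclei (3 fragments). The Cxcl10 promoter stood at 16.4 and 29.1 in these classes (36 and 20 fragments). Ccl4, Ccl6, Ccl9, Ccl11, Cxcl2, Cxcl9 and Cxcl10 were chosen for mention after their values were seen.

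Cxcl12 (chr6:117168535-117181367), the homeostatic ligand that retains progenitors and lymphocytes, was most open in the vessel classes. It stood in vascular endothelial-like nuclei at 3.51 (2.98 to 4.09, 160 fragments) under vehicle and 4.0 (3.52 to 4.53, 251) under sunitinib. Mural-like nuclei had 3.5 and 3.81 and fibroblast-like nuclei 2.02 and 2.2, and the first 2 of these classes did not differ beyond their counting intervals. Cx3cl1, the membrane-bound fractalkine, stood at 2.80 and 2.57 in vascular endothelial-like nuclei (107 and 135 fragments), and endocardial-like nuclei had nearly the same level, at a ratio of 1.02 between the classes. Ccl25, known as the thymic and intestinal ligand of Ccr9, showed no preferred class, with 1.10 in myeloid-like, 1.09 in T lymphocyte-like and 1.06 in vascular endothelial-like nuclei, and 64.8% of its fragments touched another gene.

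Cxcr4 (chr1:128588199-128592293) had the highest CPM per kb of any member within a class, and over both libraries its highest levels were in the 3 leukocyte classes. In the whole libraries the Ccr10 window was higher per kb under vehicle, at 4.68 against 3.24. In T lymphocyte-like nuclei Cxcr4 stood at 9.35 (6.31 to 13.3, 30 fragments) under vehicle and 13.1 (11.6 to 14.8, 269) under sunitinib. B lymphocyte-like nuclei had 10.1 and 11.8 and myeloid-like nuclei 11.1 and 9.36, and the intervals of these 3 classes overlapped. Vascular endothelial-like nuclei had 4.80 and 4.30 (90 and 111 fragments). The other lymphoid receptors were more restricted. Ccr4 stood in T lymphocyte-like nuclei at 2.86 (1.85 to 4.22, 25 fragments) under vehicle and 2.79 (2.37 to 3.26, 156) under sunitinib, which is 2.12 times the next class. Ccr7, the receptor for Ccl19 and Ccl21a that leads cells into lymph nodes, was highest in B lymphocyte-like nuclei at 6.95 and 5.11 (19 and 22 fragments) and next in T lymphocyte-like nuclei at 4.13 and 3.29 (28 and 143).

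Ccr9 (chr9:123678439-123784330) was highest in T lymphocyte-like nuclei, 1.88 times the next class. Its GENCODE window of 108 kb is far longer than the RefSeq gene of 18.2 kb with upstream sequence. On the RefSeq window the T lymphocyte-like level was 2.81 under vehicle (27 fragments) and 4.03 under sunitinib (248). The 6 markers of immature thymocytes, among them Rag1, Rag2, Ptcra and Dntt, were at least 2-fold more open in this class than in the other nuclei. They summed to 699 and 749 CPM there, vehicle then sunitinib.

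The long windows changed the picture most for Cx3cr1, the fractalkine receptor of macrophages. Its GENCODE window of 170 kb held 29.1% of all member fragments and was highest in cardiomyocyte-like nuclei (2.46 and 2.01), and 63.2% of its fragments touched another gene. On the RefSeq window of 21.6 kb it was highest in myeloid-like nuclei at 2.41 over both libraries, against 0.968 in fibroblast-like and 0.345 in cardiomyocyte-like nuclei. Ccr2, the monocyte receptor of Ccl2, held only 7 and 7 fragments in myeloid-like nuclei. Among the atypical receptors, Ackr3, which scavenges Cxcl12, stood at 4.18 (3.23 to 5.32, 66 fragments) under vehicle and 4.31 (3.41 to 5.38, 78) under sunitinib in fibroblast-like nuclei, and it was highest in the small epicardial or mesothelial-like class (4.65 over both libraries). Vascular endothelial-like nuclei had 3.08 and 2.88 and cardiomyocyte-like nuclei 3.38 and 3.58, and the level was 0.347 in T lymphocyte-like nuclei.

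The comparison of sunitinib with vehicle over the whole libraries asks how the members' accessibility differed in the heart under the drug. Summed over whole windows, CC receptors and, less so, CXC and other receptors were higher under sunitinib, atypical receptors were lower, and ligands were nearly level. CC receptors summed to 135 CPM under vehicle and 193 under sunitinib, a log2 ratio of 0.51 (0.44 to 0.58). CXC and other receptors summed to 308 CPM under vehicle and 345 under sunitinib, 0.17 (0.12 to 0.22). Long windows weigh on both sums. The 170 kb Cx3cr1 window held 4299 of 5751 vehicle and 5739 of 8161 sunitinib fragments of the CXC and other receptors. The 108 kb Ccr9 window held 941 of 2522 and 2215 of 4551 fragments of the CC receptors. Within 1 kb of start sites, CC receptors were at 0.46 (0.31 to 0.60) and CXC and other receptors at 0.37 (0.21 to 0.53). CC ligands summed to 158 CPM under vehicle and 149 under sunitinib, -0.08 (-0.16 to -0.01). Of their 2945 and 3512 fragments, the 131 kb window of Ccl1 held 1073 and 1107, at -0.29 (-0.42 to -0.17). On the RefSeq window Ccl1 was at 0.30 (-0.09 to 0.71), from 87 and 136 fragments. Ccl1 is named here for its long window, after its values were seen. CXC ligands summed to 89.8 CPM under vehicle and 86.4 under sunitinib, -0.06 (-0.15 to 0.04). The 4 atypical receptors were lower, at 64.6 CPM under vehicle and 54.2 under sunitinib, -0.25 (-0.37 to -0.14), with all 4 values below 0. The intervals of Ackr3 (-0.32 to 0.01) and Ackr2 (-0.54 to 0.01) include 0, and 97.4% of the Ackr4 fragments touched another gene window. Over the 60 members the ratio was 0.12 (0.09 to 0.16), and without the 4 windows over 50 kb it was 0.05 (0.01 to 0.09).

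T lymphocyte markers were higher under sunitinib, as were the sums of CC receptors and of CXC and other receptors. T lymphocyte-like nuclei were 8.94% of the vehicle nuclei (241, exact Clopper-Pearson interval 7.89 to 10.1) and 35.1% of the sunitinib nuclei (1356, 33.6 to 36.6). Over the whole libraries the 11 T lymphocyte markers summed to 289 and 547 CPM, with all 11 higher and none at 0, and the 6 immature thymocyte markers to 134 and 267, with all 6 higher. Myeloid markers summed to 143 and 126 CPM. More nuclei of a class and more open chromatin per nucleus cannot be told apart in a whole library. Ratios with vehicle shares come from called nuclei alone, with the class shares of both libraries set to those of vehicle. By this count the ratio of CC receptors was 0.19, that of CXC and other receptors 0.06, that of CC ligands -0.03 and that of atypical receptors -0.03. The ratio of CXC ligands turned direction, to 0.11 with vehicle shares and 0.10 (-0.03 to 0.22) in nuclei outside the lymphoid classes. In called nuclei outside the lymphoid classes, CC receptors stood at 126 CPM under vehicle and 148 under sunitinib, 0.22 (0.10 to 0.35).

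**Figure D3:**
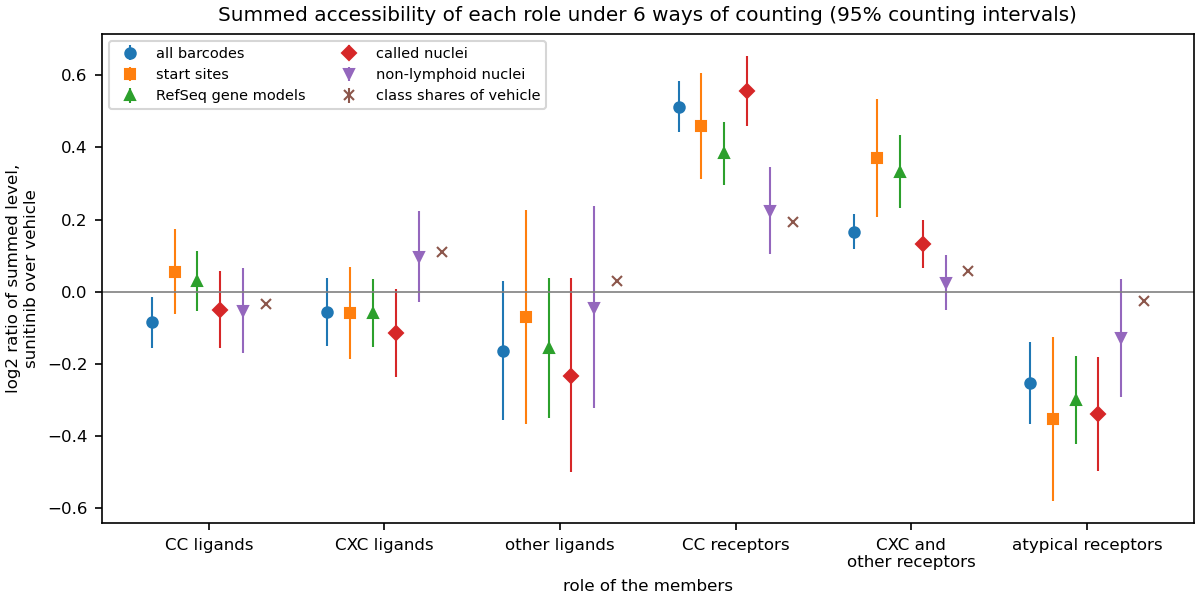
Log2 ratio of the summed level of each role, sunitinib over vehicle, counted over all barcodes, near start sites, on RefSeq models, in called nuclei, in non-lymphoid nuclei, and with the class shares of vehicle. Bars are 95% counting intervals, and the points for CC receptors run from 0.56 in called nuclei to 0.19 with vehicle shares, all above 0.

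Member by member, 4 of 55 measured windows were past 1.5-fold higher (7.27%), where 2.06% of all measured genes were, and 6 of 55 were past 1.5-fold lower (10.9%), where 2.26% were. Of the 6 lower windows, 5 held 50 to 150 fragments. In that range 5 of 26 members and 13.8% of all genes were past 1.5-fold lower, and 1 of 26 members and 2.02% of all genes were past 1.5-fold higher. The median log2 ratio was -0.05 over the 55 members and 0.07 over all genes. By role it was -0.11 over 19 CC ligands (5 higher, 14 lower), -0.02 over 11 CXC ligands, 0.37 over 11 CC receptors (7 higher, 4 lower), 0.30 over 8 CXC and other receptors (7 higher, 1 lower) and -0.28 over the 4 atypical receptors.

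Ccr9 had the largest ratio. It held 941 fragments (50.4 CPM, 47.2 to 53.7) under vehicle and 2215 (93.8, 89.9 to 97.8) under sunitinib, a ratio of 0.90 (0.79 to 1.01). On the RefSeq window it held 161 and 559 fragments, 1.45 (1.20 to 1.72). The difference was smaller once the classes were held apart, at 0.36 with vehicle shares and 0.36 (0.17 to 0.56) in non-lymphoid nuclei.

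Ccr4 held 186 fragments (9.96 CPM, 8.58 to 11.5) under vehicle and 406 (17.2, 15.6 to 18.9) under sunitinib, 0.79 (0.53 to 1.05). Cxcr4 held 369 fragments (19.8 CPM, 17.8 to 21.9) under vehicle and 749 (31.7, 29.5 to 34.1) under sunitinib, 0.68 (0.50 to 0.87). In non-lymphoid nuclei the ratio of Cxcr4 was 0.01 (-0.27 to 0.29) and that of Ccr4 0.20 (-0.28 to 0.70), and both intervals include 0. Xcl1, a ligand made by activated T and natural killer cells, was the fourth, from only 22 and 48 fragments, 0.77 (0.03 to 1.59). In called nuclei alone its ratio was 2.27 (0.76 to 4.83), and with vehicle shares in the same nuclei it was 2.15. No class of nuclei held more than 10 Xcl1 fragments over both libraries. Ccr7 had a smaller ratio of 0.40 (0.21 to 0.60) from 341 and 570 fragments, and 0.00 with vehicle shares. Cxcr1, a receptor for neutrophil attractants, held 51 and 94 fragments, 0.54 (0.04 to 1.06), and Ccr3, the eosinophil receptor, 35 and 65 fragments, 0.54 (-0.06 to 1.19). Ccr2 held 71 and 120 fragments, 0.41 (-0.02 to 0.86).

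On the lower side, Ccr6 was the window with the most fragments. This receptor of B cells and a subset of helper T cells held 237 fragments (12.7 CPM, 11.1 to 14.4) under vehicle and 196 (8.30, 7.18 to 9.54) under sunitinib, -0.61 (-0.89 to -0.33). Its ratio in non-lymphoid nuclei was -0.06 (-0.63 to 0.52). Ackr1, the Duffy receptor of venules and red cell precursors, held 50 fragments (2.68 CPM, 1.99 to 3.53) under vehicle and 27 (1.14, 0.753 to 1.66) under sunitinib, -1.22 (-1.96 to -0.52), but 70.1% of its fragments touched another gene and the ratio of the others was -0.22. The remaining 4 were small. Ccl24, an eosinophil attractant, held 64 and 51 fragments, -0.66 (-1.23 to -0.11). Ccl7 held 58 and 47 fragments, -0.64 (-1.23 to -0.06). Ccl8, a monocyte attractant, held 35 and 28 fragments, -0.66 (-1.43 to 0.10), and Ccr1l1, a gene related to Ccr1, 31 and 25 fragments, -0.64 (-1.47 to 0.16). The intervals of these last 2 include 0.

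The inflammatory and homeostatic ligands best known in the heart stayed within 1.5-fold. Ccl2 held 114 fragments (6.10 CPM, 5.03 to 7.33) under vehicle and 102 (4.32, 3.52 to 5.24) under sunitinib, -0.50 (-0.90 to -0.10), and its ratio was 0.02 with vehicle shares, the other direction, and all its fragments touched another gene window. Cxcl1 held 172 and 190 fragments, -0.20 (-0.50 to 0.11), and 0.07 with vehicle shares. Cxcl12 held 506 fragments (27.1 CPM, 24.8 to 29.6) under vehicle and 612 (25.9, 23.9 to 28.0) under sunitinib, -0.06 (-0.24 to 0.11). Its scavenger Ackr3 held 563 and 639 fragments, -0.16 (-0.32 to 0.01). Cx3cl1 held 397 and 425 fragments, -0.24 (-0.44 to -0.04), and Cx3cr1 4299 and 5739 fragments, 0.08 (0.02 to 0.14). The RefSeq window of Cx3cr1 gave the other direction, at -0.16 (-0.43 to 0.12). Ccl25 held 592 and 856 fragments, 0.19 (0.04 to 0.35), and Cxcr2 67 and 76 fragments, -0.16 (-0.65 to 0.34). The Ccr10 window, the most open of the CC receptors at 4.68 and 4.88 CPM per kb, shares every fragment with another gene window and had a ratio of 0.06 (-0.13 to 0.25).

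**Figure D4:**
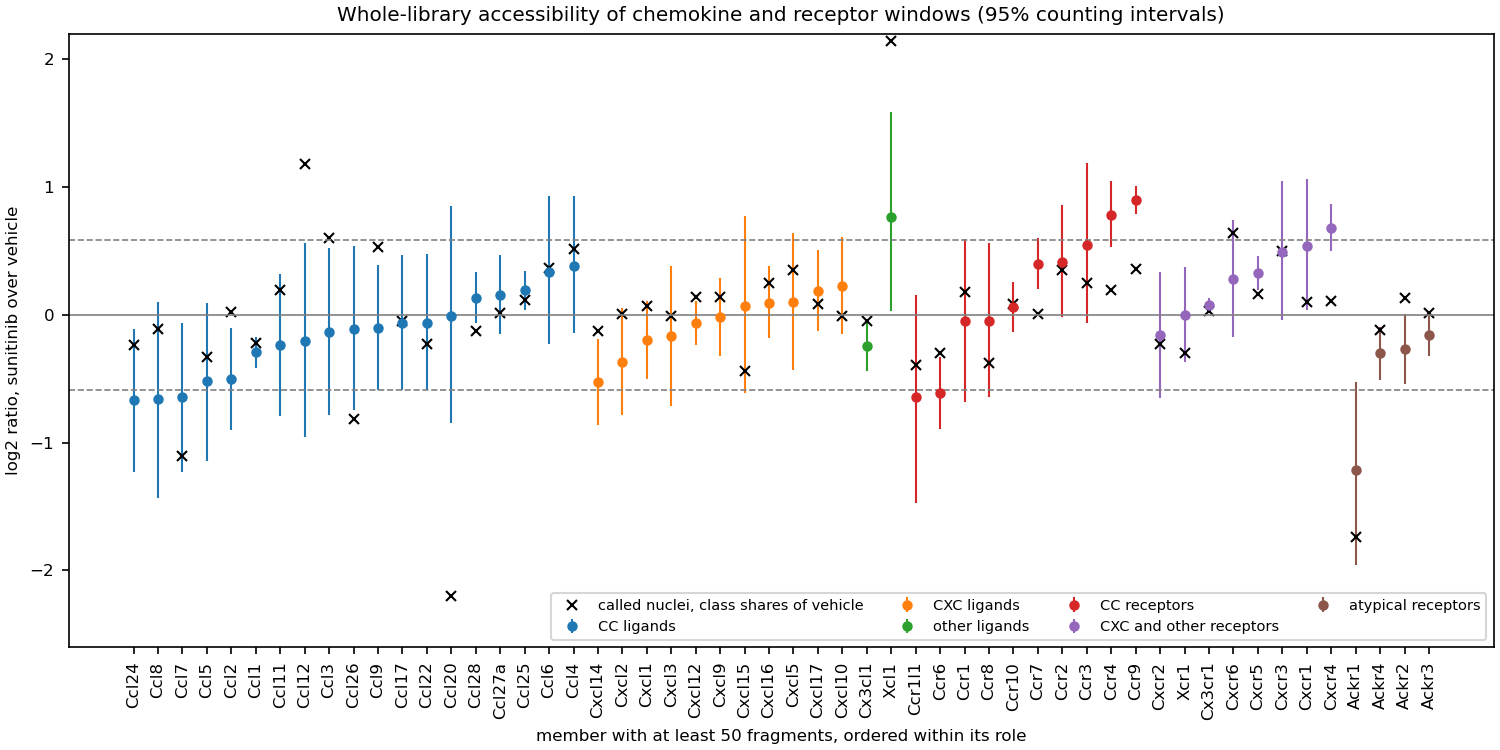
Log2 ratio of sunitinib over vehicle for 54 of the 55 members with at least 50 fragments, with 95% counting intervals, ordered within each role, and dashed lines at 1.5-fold. Crosses give the ratio in called nuclei with the class shares of vehicle, and they lie nearer 0 than the points for Ccr9 (0.36 against 0.90), Ccr4 (0.20 against 0.79) and Cxcr4 (0.11 against 0.68).

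Within cell classes few windows held enough fragments, and few of those differed. In vascular endothelial-like nuclei 1 of 22 measured members was past 1.5-fold higher (1.17% of all measured genes) and none lower (1.71%). In T lymphocyte-like nuclei none of 11 was past it in either direction (6.17% of all genes higher, 4.83% lower). In fibroblast-like nuclei none of 12 was (4.56% higher, 3.27% lower). In cardiomyocyte-like nuclei 1 of 6 was higher (4.32%) and none lower (6.57%). In myeloid-like nuclei none of 5 was (6.03% higher, 4.30% lower). The counts are too low for a share near or away from the background to be read.

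The endothelial gene was Ccr4, at 0.294 (0.164 to 0.485, 15 fragments) under vehicle and 0.498 (0.347 to 0.693, 35) under sunitinib, 0.74 (-0.15 to 1.74), and its interval includes 0. T lymphocyte markers in the same nuclei summed to 167 and 218 CPM, vehicle then sunitinib, and their part in the Ccr4 value was not tested. The cardiomyocyte gene was Ccr9, at 0.283 (0.177 to 0.428, 22 fragments) under vehicle and 0.599 (0.463 to 0.762, 66) under sunitinib, 1.06 (0.37 to 1.85). These values are from its long GENCODE window. On the RefSeq window Ccr9 held 7 and 15 fragments in cardiomyocyte-like nuclei, 0.54 (-0.78 to 2.13), and that interval includes 0. The same T lymphocyte markers summed to 207 and 254 CPM in cardiomyocyte-like nuclei (0.30, 0.00 to 0.60), and their part in the Ccr9 value was not tested either.

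CC receptors were also higher in fibroblast-like nuclei, at 134 CPM under vehicle and 191 under sunitinib, 0.51 (0.21 to 0.82). CXC and other receptors there were at 0.11 (-0.11 to 0.32) and atypical receptors at -0.03 (-0.36 to 0.30), and both intervals include 0. Of those 143 and 234 fragments Ccr9 held 74 and 127, at 0.642 (0.504 to 0.806, 74 fragments) under vehicle and 0.960 (0.801 to 1.14, 127) under sunitinib, 0.58 (0.16 to 1.02). T lymphocyte markers were higher in the same fibroblast-like nuclei, at 170.3 and 344 CPM (1.01, 0.76 to 1.27, 11 of 11 higher, none at 0), and so were immature thymocyte markers, at 81.4 and 165 CPM (5 of 6 higher). Their part in the receptor values was not tested. Mural-like nuclei showed the same arrangement, with CC receptors at 89.4 CPM under vehicle and 143 under sunitinib, 0.67 (0.12 to 1.26), and T lymphocyte markers at 158 and 241 CPM (0.61, 0.19 to 1.04, 9 of 11 higher, 1 at 0), and their part was not tested. In T lymphocyte-like nuclei the CC receptors were 0.11 (-0.10 to 0.33) and in myeloid-like nuclei -0.34 (-0.73 to 0.04), and both intervals include 0. CXC and other receptors were lower in cardiomyocyte-like nuclei, at 485 CPM under vehicle and 396 under sunitinib, -0.29 (-0.50 to -0.08). The long Cx3cr1 window weighs on this sum. Unnamed clusters held 170 and 237 nuclei, which count as outside the lymphoid classes. Their CC receptors were at 0.50 (0.09 to 0.93) and their atypical receptors at -0.66 (-1.24 to -0.06). Ccr9 within T lymphocyte-like nuclei stood at 1.72 (1.40 to 2.10, 98 fragments) under vehicle and 2.24 (2.09 to 2.40, 814) under sunitinib, 0.37 (0.07 to 0.69).

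Most ligand sums within classes had intervals that include 0. CC ligands were at 0.09 (-0.11 to 0.29) in vascular endothelial-like, -0.18 (-0.49 to 0.13) in fibroblast-like, 0.15 (-0.16 to 0.46) in myeloid-like and 0.13 (-0.39 to 0.66) in mural-like nuclei. CXC ligands were at 0.14 (-0.04 to 0.33), -0.01 (-0.32 to 0.30), 0.41 (-0.08 to 0.91) and 0.12 (-0.42 to 0.67) in the same order. Xcl1 and Cx3cl1 together were higher in mural-like nuclei, from 9 and 23 fragments, 1.17 (0.05 to 2.51). Endocardial-like nuclei had a lower CC ligand level under sunitinib, 139.9 CPM under vehicle and 76.2 under sunitinib from 108 and 28 fragments, -0.86 (-1.53 to -0.27). Over all members, receptors included, the ratio was 0.08 (0.01 to 0.16) in vascular endothelial-like, 0.07 (-0.05 to 0.20) in fibroblast-like, -0.05 (-0.20 to 0.11) in cardiomyocyte-like and 0.04 (-0.12 to 0.20) in myeloid-like nuclei. It was 0.10 (-0.03 to 0.24) in T lymphocyte-like, 0.12 (-0.12 to 0.36) in B lymphocyte-like, 0.04 (-0.17 to 0.24) in endocardial-like and 0.25 (0.04 to 0.46) in mural-like nuclei. The mural-like and vascular endothelial-like intervals exclude 0. Without windows over 50 kb the ratio was 0.22 (-0.06 to 0.51) in mural-like and 0.05 (-0.05 to 0.15) in vascular endothelial-like nuclei, and both intervals include 0. Ackr3 in endocardial-like nuclei was at 2.72 and 4.61 (31 and 25 fragments, 0.77 (-0.06 to 1.57)). Below the minimum of 50 fragments, 389 pairs of a window and a named class held at least 1 fragment, and the interval lay above 0 in 5 of them and below 0 in 4. Of these, 3 with the largest ratios were chosen after their values were seen. Cxcl1 in myeloid-like nuclei held 2 and 12 fragments, Ccr7 in myeloid-like nuclei 11 and 1, and Ccr6 in B lymphocyte-like nuclei 20 and 5, -2.55 (-4.43 to -1.20). T lymphocyte markers in the same B lymphocyte-like nuclei summed to 599 and 963 CPM (0.68, 0.39 to 0.99, 10 of 11 higher, none at 0), and in the myeloid-like nuclei to 165 and 236 CPM (0.52, 0.11 to 0.93, 7 of 11 higher, none at 0). Their part in these values was not tested.

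**Figure D5:**
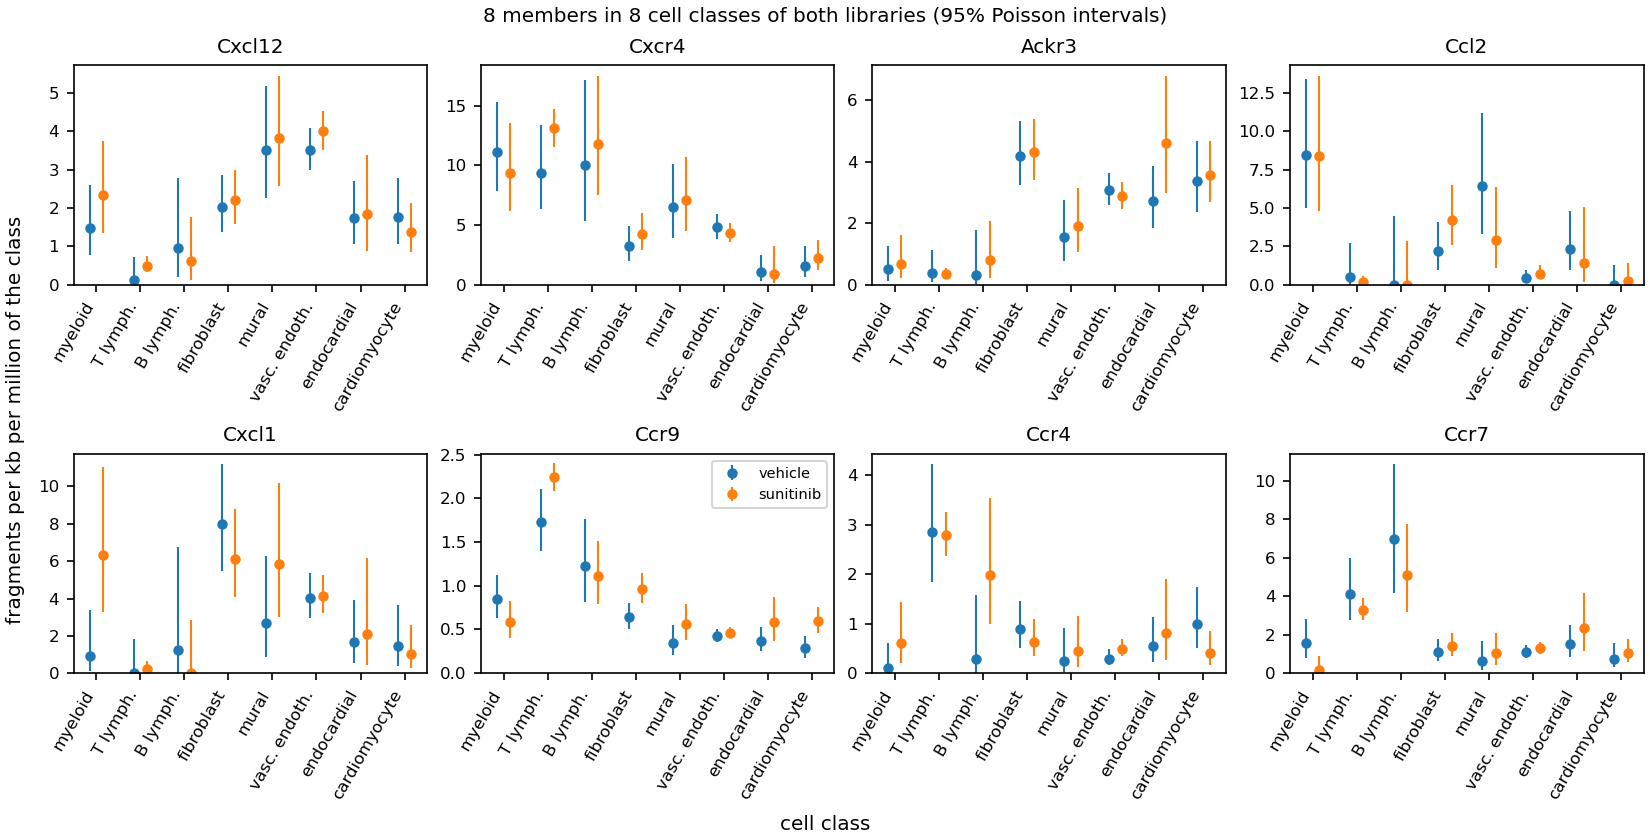
CPM per kb of the class for 8 members in 8 cell classes, vehicle beside sunitinib, with 95% Poisson intervals and a separate axis for each member. The intervals of the libraries overlap for each member and class drawn, except for Ccr9 in cardiomyocyte-like nuclei (0.283 and 0.599). A ratio interval can still lie wholly above or below no change where these overlap. Ccr9 in fibroblast-like and T lymphocyte-like nuclei is such a case, among others.

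Among other genes of the pathway, the few past 1.5-fold were higher and most are known from leukocytes. Of 21 measured genes of receptor signalling and migration, 3 were past 1.5-fold higher and none lower, namely Coro1a, an actin regulator of leukocytes (0.65), Rac2, a small GTPase of blood cells (0.61), and Rgs1, which limits receptor signalling (0.60). Of 16 measured adhesion and transmigration genes, 3 were past it, among them Selplg, which encodes a selectin ligand of leukocytes (1.16), and the integrin gene Itga4 (0.60), and none was lower. The medians of the lists were 0.21 and 0.23, and with vehicle shares they were 0.05 and 0.11. Among 8 ligand-cleaving enzymes Dpp4, a peptidase of T cells and other cells, was past 1.5-fold higher (0.63). None of 12 NF-kappaB genes (median 0.11), 12 heparan sulfate genes (-0.02) or 7 further chemokine family genes such as Pf4 (-0.13) was past it in either direction. The 2.06% and 2.26% of all genes given above are the background for these counts too.

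The library of sunitinib with Yoda1 was compared as a whole, using the 258020 of its fragments that 100 or more read pairs support, since its 209296546 read pairs fell on only 583792 fragments. It held 179 fragments over the members. Of the 60 windows 36 held at least 1 fragment, 24 held none, and 3 held at least 10, namely Cx3cr1 (62), Ccr9 (11) and Ccl25 (10). CC receptors stood at 101 CPM from 26 fragments, against 193 under sunitinib alone, -0.91 (-1.55 to -0.38), and against 135 under vehicle, -0.40 (-1.04 to 0.13). All members stood at 694 CPM against 847 under sunitinib, -0.28 (-0.51 to -0.08), and without the windows over 50 kb the ratio was -0.18 (-0.49 to 0.11). Ccr9 was at 50.4 CPM under vehicle, 93.8 under sunitinib and 42.6 (21.3 to 76.3) with Yoda1 added, and Cxcr4 at 19.8, 31.7 and 11.6 (2.40 to 34.0). For both genes the interval of the last library includes the vehicle value and excludes the sunitinib value for Ccr9 only. Ccr9 held 11 of the 26 CC receptor fragments of this library. Of its 12 called nuclei 0 were T lymphocyte-like, where 35.1% were under sunitinib. The part of class shares in these ratios was not tested. The library also came from another version of the processing software, so the version and the group cannot be told apart.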

How the data were processed

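Chromatin accessibility was read from the fragment files of 3 single-nucleus multiome libraries of mouse heart, 1 each for vehicle, sunitinib and sunitinib with Yoda1. The authors deposited these files from cellranger-arc 2.0.0 (vehicle and sunitinib) or 2.0.2 (Yoda1) on mm10, per the file headers, and Cell Ranger and Signac are named in the submitters' processing notes. The last column of each deposited file holds a read count per fragment, and 1 line is 1 fragment.

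Each fragment was counted once per gene window it touched (gene body with 2 kb upstream) with Python 3.11.15, numpy 2.4.6, pandas 2.3.3 and scipy 1.17.1, and scaled to 1000000 fragments on the autosomes and X (CPM, computed here), with CPM per kb dividing by window length. Nuclei had at least 1000 fragments, a start site enrichment of at least 4 and a nucleosome ratio below 4. They were clustered on 60000 tiles of 5 kb, with 30 components, 20 neighbours and resolution 0.8 (scikit-learn 1.9.0, igraph 0.11.9, leidenalg 0.10.2). A cluster was named where at least 3 markers and the median marker were 2-fold more open than in other nuclei, the rule on the median being added after seeing the data. No doublet caller was run, and 22 nuclei barcodes shared by vehicle and sunitinib were kept. Figures were drawn with matplotlib 3.10.9.

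Ratios add 0.5 counts to each side and carry exact 95% intervals (Poisson, conditional on the sum, or Clopper-Pearson), which cover counting error only. A member was past 1.5-fold with at least 50 fragments over both libraries. On simulated counts for 19358 genes of the whole libraries, with 200 changed genes, the true ratio lay within 95.5% of intervals, 98% of 2-fold and 2% of 1.3-fold changes were called, and 0.752% of unchanged genes were. Those counts were independent Poisson draws, the model behind the intervals, so coverage near 95% was built in. They held no variation between hearts and no clustering of fragments within nuclei. Named members were those among the 3 highest levels of a class, the 6 highest or lowest whole-library ratios, those past 1.5-fold within a class, and a fixed list of 14 known heart or lymphoid chemokine genes. Members and lists were chosen with earlier results of these data known. Alternatives changed the window, the fragments, the nuclei, the classes, the scaling and the fragment minimum. The RNA arm was not analysed here, and a few genes are not reported or drawn here.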

Additional observations from a re-analysis of the deposited data

Results flagged for a closer look

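The Cx3cr1 window differed between cell classes in its direction under sunitinib. In B lymphocyte-like nuclei the log2 ratio of sunitinib over vehicle was 0.52 (0.03 to 1.04) from 49 and 111 fragments, and in cardiomyocyte-like nuclei it was -0.29 (-0.52 to -0.07) from 302 and 349. The intervals lie on opposite sides of 0, and the difference between the classes was not tested. The window spans 170 kb, and on the RefSeq window of 21.6 kb these classes held 3 and 8, and 6 and 7 fragments.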

How the results depend on the processing

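All values are log2 ratios of sunitinib over vehicle unless called counts, and the cause of each change was not tested. In called nuclei outside the lymphoid classes, all members stood at 0.039, CXC ligands at 0.10, CC receptors at 0.22, CXC and other receptors at 0.025 and atypical receptors at -0.13, with counts of 0 members past 1.5-fold higher and 1 lower. With vehicle class shares the same sums were 0.067, 0.11, 0.19, 0.057 and -0.027, the counts were 2 and 1, and Ccl2 reversed to 0.025. Near start sites CC ligands reversed to 0.055, CXC and other receptors stood at 0.37, Cxcr1 at -0.0044 and Cx3cr1 at -0.63. There all members stood at -0.059 in T lymphocyte-like, -0.074 in fibroblast-like, 0.13 in cardiomyocyte-like and -0.20 in endocardial-like nuclei. RefSeq windows, chosen after seeing the data, gave 0.030 for CC ligands (reversed), 0.38 for CC receptors, 0.33 for CXC and other receptors and -0.16 for Cx3cr1. Without windows over 50 kb, also chosen after seeing the data, all members stood at 0.051 in the whole libraries, -0.050 in T lymphocyte-like and 0.13 in cardiomyocyte-like nuclei. Fragments touching 1 gene window gave 0.62 for CC receptors and 0.22 for CXC and other receptors. Scaling by fragments over gene windows gave 0.072 for all members and 0.11 for CXC and other receptors. Fragments shorter than a nucleosome gave 0.47 for all members in mural-like nuclei. The count past 1.5-fold lower was 2 with these short fragments, 3 in called nuclei and 3 with at least 100 fragments.

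The number of members highest in myeloid-like nuclei was 5 with at least 3000 fragments per nucleus, 6 near start sites and 3 with short fragments, where fewer members had enough fragments to be ranked (23, 17 and 14). In fibroblast-like nuclei it was 4 near start sites and 3 with short fragments. In vascular endothelial-like nuclei it was 2, 1 and 2 in the first order, and in B lymphocyte-like nuclei 0 near start sites and 1 with short fragments. The highest class was the same for 15 of 23, 13 of 17 and 14 of 14 of these ranked members.

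No paired analysis was possible because each group holds 1 library. With 1 library a group, differences between hearts cannot be told apart from the drug. Within classes, few windows reached 50 fragments, so a member under it was not measured closely enough to call, and in the Yoda1 library only 3 members held at least 10 fragments.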
